A study of Homo sapiens with 10 samples.

Results

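Laminin chains and integrin subunits were described across 5 melanoma cell lines, each as the drug-sensitive original and as its encorafenib plus binimetinib-resistant (E+BRes) derivative. The genes were taken by symbol alone, as every LAMA, LAMB, LAMC, ITGA and ITGB gene, which gave 38 of the 57955 genes measured, 12 for laminins and 26 for integrins. Of these, 35 had at least 20 raw counts in some library and are described, and ITGAD, ITGAL and ITGB7 did not reach that level and are counted as silent. The lines WM983A, WM278 and WM902B came from primary tumours and WM983B and WM1617 from metastases. The paper lists a BRAF mutation for all 5 lines, without a separate genotype of the resistant derivatives. The resistant cells had been exposed to both drugs continuously for 3 to 5 months, from 1 nM up to 200 nM, and were kept in 200 nM, whereas the sensitive cells were the untreated originals at the same passage number. Encorafenib inhibits BRAF and binimetinib inhibits MEK. Each line and state is 1 library, so a ratio within a line has no replicate error, and the p-values below measure the spread between 5 lines. The 5 lines are not 5 patients, because WM983A and WM983B form a primary and metastasis pair and so do WM278 and WM1617.

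Laminins are secreted trimers of 1 α, 1 β and 1 γ chain that build the basement membrane, and the α chain largely sets which receptors bind. Integrins are cell surface dimers of 1 α and 1 β subunit that tie such ligands to the cytoskeleton. The α3, α6 and α7 subunits serve laminin binding with β1, and β4, which pairs with α6 alone, anchors epithelial cells to laminins that hold the LAMA3 product. Melanoma cells are known for high levels of the vitronectin receptor of αv and β3.

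The start sites of 3 genes are shown because the results turn on them: LAMA5 and LAMA3, which were higher in the resistant group, and ITGA6, which was lower. The sequences are RefSeq windows of 250 bases before to 50 bases after a start on GRCh38.p14, in transcript direction. Capitals mark the letters of 2 motifs searched on both strands, the AP-1 motif TGANTCA and the E-box CACGTG, which do not overlap each other here.
LAMA5 start, chr20:62367263-62367562, minus strand: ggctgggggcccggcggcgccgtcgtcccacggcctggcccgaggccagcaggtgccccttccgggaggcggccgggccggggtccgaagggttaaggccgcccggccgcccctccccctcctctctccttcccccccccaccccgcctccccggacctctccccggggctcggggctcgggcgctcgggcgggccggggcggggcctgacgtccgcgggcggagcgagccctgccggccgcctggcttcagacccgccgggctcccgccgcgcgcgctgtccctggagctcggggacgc
LAMA3 start, chr18:23872770-23873069, plus strand: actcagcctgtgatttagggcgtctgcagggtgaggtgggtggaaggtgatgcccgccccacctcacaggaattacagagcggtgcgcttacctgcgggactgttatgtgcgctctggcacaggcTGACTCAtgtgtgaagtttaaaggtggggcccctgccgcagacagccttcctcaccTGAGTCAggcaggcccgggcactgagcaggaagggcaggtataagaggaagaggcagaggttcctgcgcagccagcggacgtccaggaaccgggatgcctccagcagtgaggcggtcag
ITGA6 start, chr2:172427086-172427385, plus strand: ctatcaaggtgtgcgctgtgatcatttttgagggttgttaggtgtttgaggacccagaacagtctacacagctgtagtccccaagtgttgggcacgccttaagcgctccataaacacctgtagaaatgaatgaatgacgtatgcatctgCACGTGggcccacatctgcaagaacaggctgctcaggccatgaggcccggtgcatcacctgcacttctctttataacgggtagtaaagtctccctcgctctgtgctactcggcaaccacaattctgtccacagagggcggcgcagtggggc
The AP-1 letters occurred in 7.71% and the E-box letters in 7.26% of all 35116 RefSeq windows of this length. The LAMA5 window held neither. The LAMA3 window held the AP-1 letters at 2 places, with first bases 125 and 69 bases before the start, and this start lies inside the gene, 183567 bases from the most upstream annotated one. The ITGA6 window shown, whose start lies 18 bases from a GENCODE one, held the E-box letters once. The other RefSeq window of ITGA6, at a start 250 bases downstream that GENCODE also has, held neither motif. Windows were found for 26 of the 38 genes, 33 windows in all, and AP-1 letters stood in 3 of these windows, those of LAMA3, ITGA5 and 1 start of LAMB3. ITGB4 was matched to no window. These matches are letters in a window and no measure of binding.

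The 10 libraries held between 13693926 and 18033170 counts, with a median of 14876446 in the sensitive and 14977419 in the resistant group, so a count of 3, the limit below which a gene was treated as not detected, equals 0.166 to 0.219 CPM (counts scaled to library size). Levels are given as counts scaled by TMM size factors (normalized counts). The resistant WM983A library stood apart. Across genes, its log2 levels correlated most with the sensitive WM902B library (r = 0.81, against r = 0.79 with its own sensitive line), whereas the other 4 resistant libraries each correlated most with their own line. Whether the cells of this library descend from sensitive WM983A was not tested, and the ratios within WM983A rest on its label. Melanocyte markers (MITF, PMEL, MLANA, TYR, DCT, TYRP1 and SOX10) summed to 1288 normalized counts in resistant against 43757 in sensitive WM983A, 2022 against 27187 in WM983B and 3527 against 41427 in WM902B. They were at 5086 and 4575 in sensitive and resistant WM278, and at 67742 and 65789 in WM1617. SOX10 alone made up 4820 and 4184 of the WM278 sums, where MITF was at 162 and 221 and PMEL at 66.4 and 65.3. MITF made up 3345 of the sum in resistant WM902B, against 6105 when sensitive. MLANA was higher in resistant WM983B (60.7 against 14), and TYRP1 in resistant WM902B (22.6 against 11.2). The other markers were lower in resistant WM983A, WM983B and WM902B. For the laminin and integrin genes with values given in all libraries, and for LAMA4, ITGA7, ITGB3 and ITGA4, group values are therefore given with and without WM983A, and the part of these marker shifts in them was not tested. In bulk RNA, fewer cells with a transcript and less transcript per cell cannot be told apart.

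Without a block, the largest log2 fold changes by edgeR were those of LAMA3 and LAMA5 among laminins and of ITGB4 among integrins. With cell line as a block, the largest among integrins was that of ITGB8 (-3.49). Of the 31 laminin and integrin genes that passed the low-count filter, 4 were higher, among them LAMA5, LAMA3 and ITGB4, and ITGA6 was lower in the resistant group at an unadjusted p of at most 0.05 with at least a 2-fold change. Among all 17288 genes tested, 3.53% met this rule as higher and 0.885% as lower. After Benjamini-Hochberg adjustment by edgeR's quasi-likelihood test no gene passed (0% of all genes), the smallest adjusted p of a laminin or integrin gene being 0.63, while 5 of them and 1235 of all genes had an unadjusted p of at most 0.05. DESeq2 called 2 of the genes after adjustment, LAMA3 and LAMA5, and gave no p-value for ITGB4. With cell line as a block the edgeR count by the unadjusted rule fell to 3, LAMA5, LAMA3 and ITGA6. The background was then 3.49% higher and 2.05% lower. DESeq2 with this block called 4 after adjustment, LAMA5, ITGB8, ITGA6 and ITGB4 (adjusted p = 0.0469), and LAMA3 missed (adjusted p = 0.0506). By edgeR without the block and without WM983A, ITGB4 and LAMA5 met the unadjusted rule. The median log2 fold change of the 31 genes was 0.158, and that of all genes tested was 0.0292. The 5 resistant and the 5 sensitive libraries overlapped in each of the 31 genes, near the share of all genes tested, of which only 0.781% showed no overlap. LAMA3 alone moved in 1 direction in all 5 lines, 3.23% of the tested members against 11.1% of all genes tested.

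The exact two-sided permutation test of the mean log2 level over the 10 libraries, which can be divided 5 against 5 in 252 ways, gave a p of 0.0238 for LAMA5, 0.0159 for ITGA6, 0.0317 for ITGB4, 0.119 for LAMA3, 0.103 for ITGB8, 0.683 for ITGA3 and 0.635 for ITGB1. This takes the libraries as unpaired, although each resistant line derives from its sensitive line. The exact paired test, which flips the sign of the within-line ratios and was added after the data were seen, gave p = 0.125 for LAMA5, ITGA6 and ITGB4, 0.0625 for LAMA3, 0.188 for ITGB8, 0.562 for ITGA3 and 0.438 for ITGB1. With 5 lines it cannot go below 0.0625, so no gene could pass it.

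**Figure D1:**
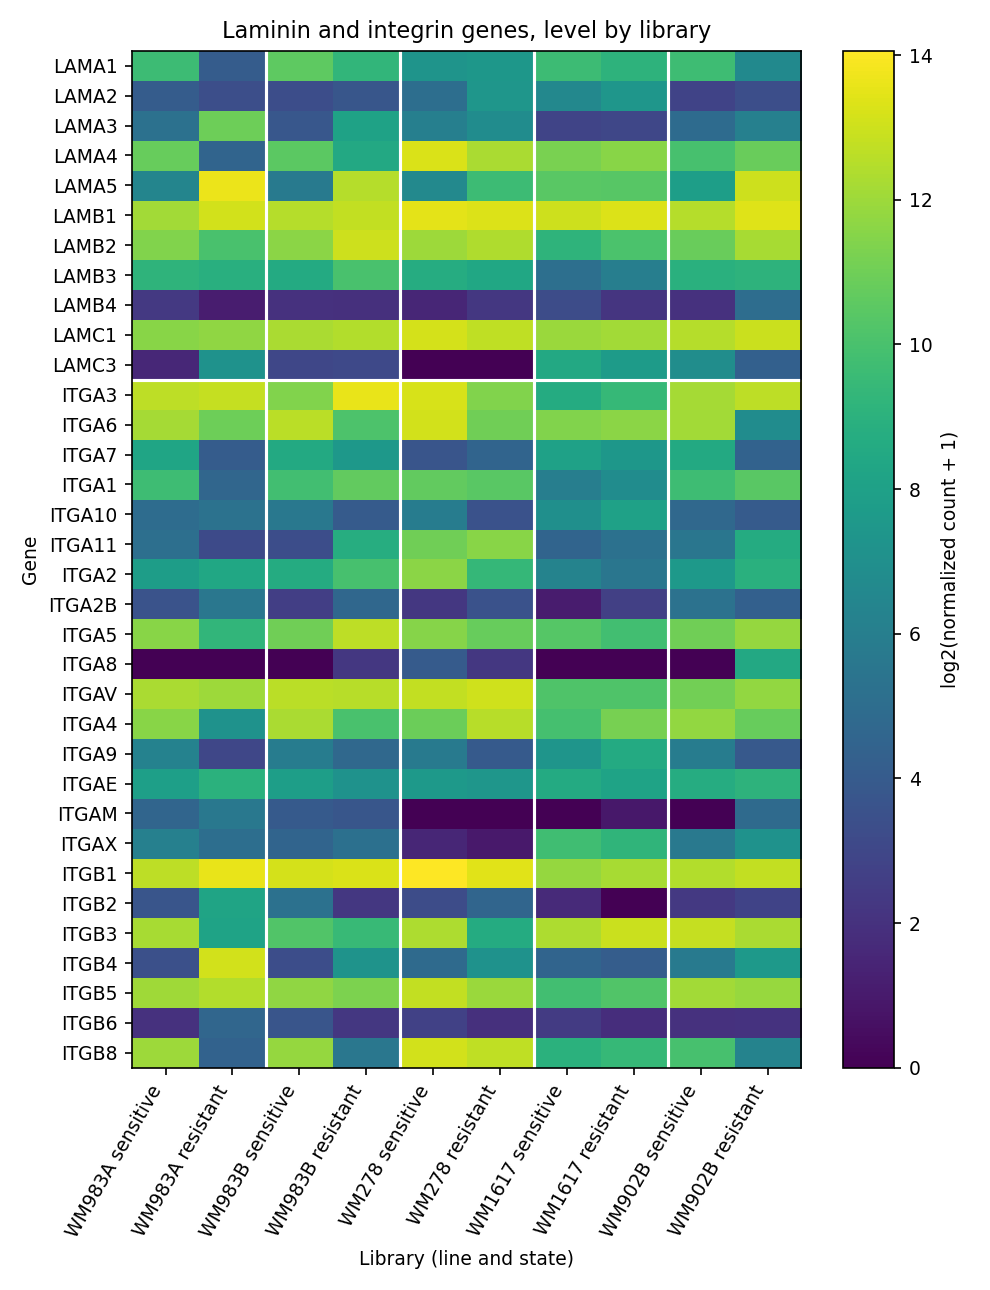
Levels of 34 of the described genes in the 10 libraries, as log2(normalized count + 1), with genes as rows in the order of the text and the sensitive and resistant library of each line side by side. LAMB1, LAMC1 and ITGB1 were high in every library, whereas LAMA5 ran from 52 normalized counts in sensitive WM983B to 12691 in resistant WM983A.

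LAMA5, the α5 chain of basement membrane laminins (chromosome 20, bases 62307955 to 62367312, GRCh38, minus strand), had 82.1, 52, 95.8, 1405 and 233 normalized counts in sensitive WM983A, WM983B, WM278, WM1617 and WM902B. In the resistant libraries, in the same order, it had 12691, 5789, 800, 1340 and 8267. The 4 lines that were low when sensitive were 155-fold, 111-fold, 8.35-fold and 35.4-fold higher when resistant, in the order WM983A, WM983B, WM278 and WM902B, and WM1617, high from the start, stayed within 1.05-fold. The groups overlapped through WM1617. The log2 fold change was 3.96 (SE 1.13, adjusted p = 0.63), and it was 3.17 (SE 1.2, adjusted p = 0.915) without WM983A. With the cell line block it was 4.71 (SE 1.32, adjusted p = 0.461). All 3 met the unadjusted rule. Of its exon bases 2.54% are shared with neighbouring genes.

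LAMA3, the α3 chain of epithelial laminin (chromosome 18, bases 23689453 to 23956222, plus strand), had 37.6, 13, 65.5, 6.51 and 29.4 normalized counts in the sensitive libraries in the same line order. In the resistant libraries it had 1979, 270, 112, 6.97 and 68.9. Only WM983A and WM983B changed by more than 10-fold, 52.6-fold and 20.8-fold. WM278 and WM902B differed by 1.71-fold and 2.34-fold, and WM1617 by 1.07-fold. The log2 fold change was 4.0 (SE 1.30, adjusted p = 0.63) with all lines, which met the unadjusted rule, and 1.98 (SE 1.04, adjusted p = 0.915) without WM983A, which did not. With the cell line block it was 2.42 (SE 0.984, adjusted p = 0.467) and met it.

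LAMA4, the α4 chain found in vessel and mesenchymal laminins, and LAMA1, the α1 chain of embryonic laminin, went the other way in some lines. LAMA4 was 81.3-fold lower in resistant WM983A, at 21.9 against 1777 normalized counts, 4.11-fold lower in WM983B and 1.95-fold lower in WM278. It was 1.25-fold higher in WM1617 and 1.81-fold higher in WM902B, and its log2 fold change of -0.69 (SE 1.05, adjusted p = 0.923) did not pass the test, nor did -0.53 without WM983A. LAMA1 had 811, 1507, 152, 786 and 840 normalized counts in the sensitive and 16.1, 606, 171, 553 and 102 in the resistant libraries. It was lower in 4 of 5 lines, by 50.4-fold in WM983A and 8.25-fold in WM902B, but the group value of -1.51 log2 units (SE 0.833, adjusted p = 0.747) did not pass, nor did -1.21 without WM983A. LAMA2, the α2 chain of muscle laminin, stayed at or below 169 normalized counts. It was 5.23-fold higher in resistant WM278 and within 1.79-fold in the other lines. Its group value of 1.22 log2 units (SE 1.05, adjusted p = 0.85) did not pass. With the cell line block and without WM983A it was 1.13 (SE 0.431, adjusted p = 0.422), which met the unadjusted rule.

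Levels of different genes are comparable only per length, and normalized counts per kilobase of the longest transcript gave the make-up of the α chains. LAMA4 was the leading α chain in all 5 sensitive libraries, with 56.9% to 97.6% of the α sum. LAMA5 led in 3 resistant libraries, with 85.3% in WM983A, 79.1% in WM983B and 72.6% in WM902B. LAMA4 still led in resistant WM278 with 85.8% and in resistant WM1617 with 68.7%. The 3 lines with LAMA5 in the lead are those in which the melanocyte marker sum was over 10-fold lower. That sum was 34-fold lower in WM983A, 13.4-fold in WM983B and 11.7-fold in WM902B, against 1.03-fold in WM1617. In WM278, where SOX10 made up most of the sum in both states, it was 1.11-fold lower. Most of the sum left in resistant WM902B was MITF. The mean share of LAMA5 was 7.04% ± 9.35 (SD, n = 5) in the sensitive and 53.1% ± 36 (SD, n = 5) in the resistant group. The α sum itself was 336 normalized counts per kilobase in sensitive and 1302 in resistant WM983A, 353 and 640 in WM983B, 246 and 996 in WM902B, 539 and 600 in WM1617, and 1370 and 801 in WM278. With exon unions in place of the longest transcript the same α chain led in 10 of 10 libraries.

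**Figure D2:**
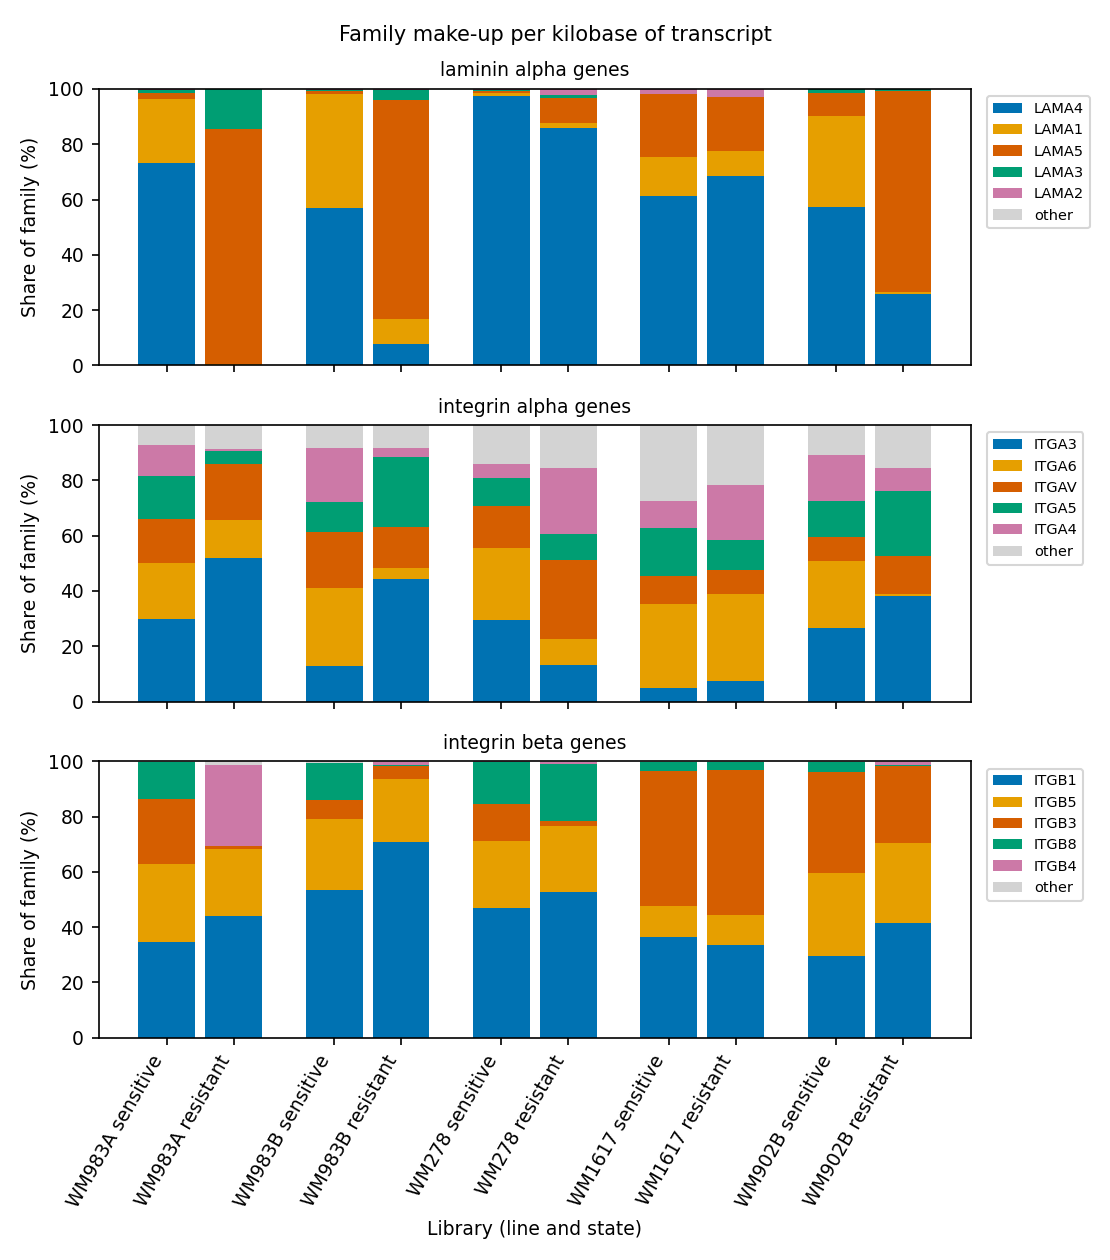
Share of each gene (%) in the sum of its family per kilobase of transcript, for laminin α, integrin α and integrin β genes in the 10 libraries, as stacked bars with the remaining genes in grey. The leading laminin α chain was LAMA4 in every sensitive library and LAMA5 in resistant WM983A, WM983B and WM902B, and ITGB4 took 29.3% of the β sum in resistant WM983A. Lengths are those of the longest transcript, and exon unions changed the leading gene in some libraries of both integrin families.

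The β and γ chains of the common trimers moved little. LAMB1, the β1 chain, had 4398 to 11232 normalized counts in the sensitive and 7046 to 10782 in the resistant libraries, and the group value of 0.40 log2 units did not pass (SE 0.275, adjusted p = 0.801). LAMC1, the γ1 chain, had 3063 to 9015 in the sensitive and 3357 to 7750 in the resistant libraries (log2 fold change 0.05, SE 0.331, adjusted p = 0.986). Per kilobase LAMC1 made up at least 80.2% of the γ sum in every library. LAMB2, the β2 chain, was 2.56-fold higher in WM983B, 2.66-fold higher in WM902B and 2.56-fold lower in WM983A, and it led the β chains, with 52%, in resistant WM983B only. That order depended on the gene length used, since exon unions gave the same leading β chain in 5 of 10 libraries.

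LAMB3, the β3 chain of epithelial laminin, which pairs with the LAMA3 product, did not follow LAMA3. It was 2.72-fold higher in WM983B and within 1.89-fold in the other lines. Resistant WM983A held 186 (LAMA3) and 109 (LAMB3) normalized counts per kilobase of the longest transcript. In the sensitive WM983A library LAMB3, at 130, was far above LAMA3, at 3.53. The LAMA3 values rest on a transcript of 10651 bases, and a shorter one would raise them. Epithelial markers (EPCAM, CDH1, KRT5, KRT14, KRT8 and KRT18) summed to 19759 normalized counts in resistant WM983A against 909 in its sensitive line. In WM983B they summed to 5146 against 456, with KRT8 at 3357 against 117 and KRT18 at 1769 against 323. The libraries of WM278, WM1617 and WM902B held 1133 to 4792. In resistant WM983A KRT8 made up 11496 and KRT18 7185 of the sum. CDH1 was at 898 and EPCAM at 167 there, against at most 9.9 and 4.82 elsewhere, while KRT5 and KRT14 were at 11.5 and 1.15. These are levels of markers in bulk RNA. The part of these markers in the laminin levels was not tested.

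LAMC3 and LAMB4 were low. LAMC3, the γ3 chain, had 358 and 120 normalized counts in sensitive WM1617 and WM902B, and 213 and 18.5 in the resistant libraries, 1.68-fold and 6.47-fold lower. Resistant WM983A held 125 raw counts against 2 in its sensitive line. LAMB4 stayed at or below 31.9 normalized counts and did not pass the filter.

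Among the laminin-binding integrins, ITGA6 (chromosome 2, bases 172427354 to 172506459, plus strand), the α6 subunit, had 4644, 6256, 8727, 2644 and 4445 normalized counts in the sensitive libraries in the same line order. In the resistant libraries it had 2006, 1126, 2037, 3080 and 113. It was lower in the resistant cells of 4 lines, by 2.32-fold in WM983A, 5.56-fold in WM983B, 4.28-fold in WM278 and 39.3-fold in WM902B, and 1.16-fold higher in WM1617, the line with the lowest sensitive level. The log2 fold change was -1.68 (SE 0.658, adjusted p = 0.669). Without WM983A it was -1.81 (SE 0.818, adjusted p = 0.915), which missed the unadjusted rule, and with the cell line block -2.08 (SE 0.771, adjusted p = 0.461), which met it. Its share of the integrin α sum per kilobase was 25.8% ± 3.94 (SD, n = 5) in the sensitive and 11.7% ± 12.1 (SD, n = 5) in the resistant group. With exon unions in place of the longest transcript the sensitive share was 33.9%, and the same α subunit led in 6 of 10 libraries.

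ITGB4 (chromosome 17, bases 75721328 to 75757818, plus strand), the β4 partner of α6, had 9.9, 9, 27.5, 21.7 and 54.8 normalized counts in the sensitive and 8723, 148, 140, 16.6 and 185 in the resistant libraries. The WM983A value is 882 times that of its sensitive line. The ratios were 16.5-fold in WM983B, 5.10-fold in WM278 and 3.38-fold in WM902B, with WM1617 1.31-fold lower. The log2 fold change was 6.24 (SE 1.72, adjusted p = 0.63), and without WM983A it was 2.10 (SE 0.779, adjusted p = 0.915), both within the unadjusted rule. With the cell line block it was 2.91 (SE 1.36, adjusted p = 0.485) and no longer met it. ITGB4 and ITGA6 thus differed in opposite directions in the same 4 lines. Per kilobase, ITGB4 stood at 1479 against 345 for ITGA6 in resistant WM983A, and in resistant WM902B at 31.4 against 19.5. In every sensitive library it was below 10, against at least 455 for ITGA6.

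ITGA3 (chromosome 17, bases 50055968 to 50090481, plus strand), the α3 subunit that binds the LAMA3 and LAMA5 trimers, had 6516, 2649, 9357, 406 and 4610 normalized counts in the sensitive and 7311, 12447, 2669, 694 and 6586 in the resistant libraries. WM983B was 4.70-fold higher and WM278 was 3.51-fold lower, with the other 3 lines 1.12-fold to 1.71-fold higher. The groups overlapped throughout, and the log2 fold change of 0.33 (SE 0.802, adjusted p = 0.961) did not pass. Its value was 0.38 without WM983A, and its direction turned when WM983B was left out (-0.29). ITGA7, the α7 subunit, was lower in 4 of 5 lines, by 19.2-fold in WM983A and 18-fold in WM902B, but the group value of -1.70 log2 units (SE 0.928, adjusted p = 0.742) did not pass, nor did -1.38 without WM983A.

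**Figure D3:**
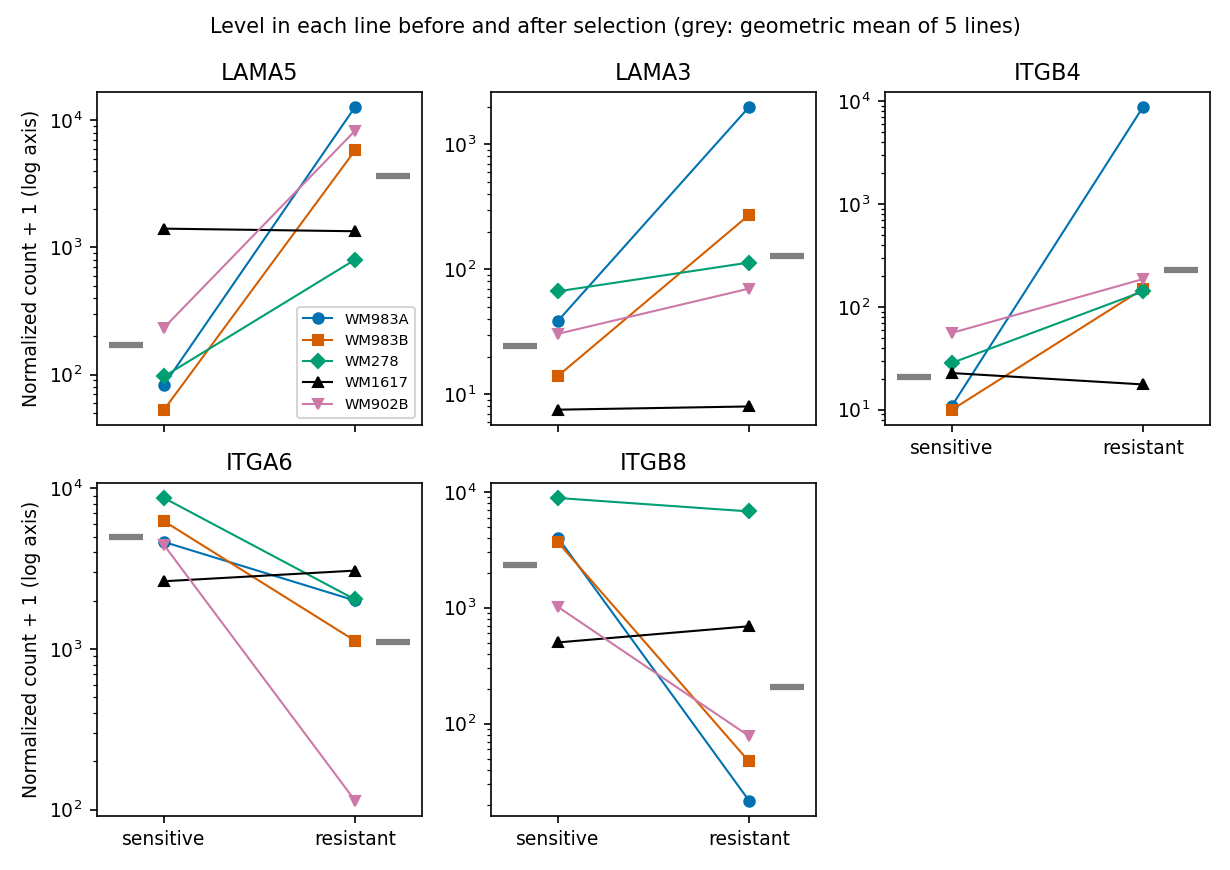
Normalized count + 1 (log axis) of 5 genes in each line, with a line from the sensitive to the resistant library and the geometric mean of the 5 lines in grey. LAMA5, LAMA3 and ITGB4 were far higher in resistant WM983A and WM983B, ITGA6 and ITGB8 were lower in both, and WM1617 differed little in every panel.

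ITGB1 (chromosome 10, bases 32887273 to 33005792, minus strand), the β1 subunit that most α subunits pair with, had 6497, 9021, 17065, 3687 and 5591 normalized counts in the sensitive and 12446, 9672, 10878, 4738 and 6970 in the resistant libraries. No line differed by 2-fold or more. Between the groups the log2 fold change was 0.09 (SE 0.422, adjusted p = 0.981), and -0.15 without WM983A. ITGB1 made up 40.3% ± 9.76 (SD, n = 5) of the β sum per kilobase in the sensitive and 48.5% ± 14.2 (SD, n = 5) in the resistant group. These shares depended on the gene length used. With exon unions they were 26.5% and 33.8%, and the same β subunit led in 7 of 10 libraries. ITGB5, the β5 partner of αv, was within 1.75-fold in all lines (log2 fold change -0.23, adjusted p = 0.954).

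ITGB8 (chromosome 7, bases 20330702 to 20415754, plus strand), the β8 partner of αv that activates TGF-β, had 4020, 3670, 8851, 501 and 1015 normalized counts in the sensitive libraries of WM983A, WM983B, WM278, WM1617 and WM902B. In the resistant libraries it had 20.7, 46.2, 6777, 691 and 77.2. It was 194-fold lower in WM983A, 79.4-fold lower in WM983B and 13.2-fold lower in WM902B, the 3 lines in which the melanocyte marker sum was also over 10-fold lower, and within 1.38-fold in WM278 and WM1617. The log2 fold change of -1.26 (SE 1.41, adjusted p = 0.887) did not pass, nor did -0.90 without WM983A, and with the cell line block it was -3.49 (SE 1.60, adjusted p = 0.481). DESeq2 with the block gave -3.55 and an adjusted p of 0.0071. ITGB3, the β3 partner of αv, was 16.3-fold lower in WM983A and 12.9-fold lower in WM278, and within 1.73-fold in the other lines (log2 fold change -0.74, adjusted p = 0.899, and -0.45 without WM983A). It shares 33.2% of its exon bases with an overlapping gene, and the protocol does not state that reads were assigned by strand, so reads of the overlap cannot be told apart. ITGB6, the epithelial β6 subunit, had 24.2 normalized counts in resistant WM983A and at most 12 elsewhere.

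ITGAV, the αv subunit that pairs with β3, β5, β6 and β8, had 1174 to 7093 normalized counts in the sensitive and 1176 to 8462 in the resistant libraries, and no line differed by more than 1.6-fold. ITGA5, the fibronectin-binding α5 subunit, was 5.07-fold lower in WM983A and 3.17-fold higher in WM983B. ITGA8, an α subunit of mesenchymal cells, held 0 raw counts in 6 of the libraries and 352 in resistant WM902B, at least 119-fold above its sensitive line. ITGA2B, the platelet αIIb subunit, stayed at or below 47.2 normalized counts, and was 4.33-fold and 5.01-fold higher in WM983A and WM983B and 2.08-fold lower in WM902B.

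The collagen-binding α subunits differed from line to line. ITGA1, the α1 subunit, was 33.7-fold lower in resistant WM983A (24.2 against 813 normalized counts) and within 1.81-fold in the other 4 lines. ITGA11, the fibroblast collagen receptor α11, was 47.3-fold higher in WM983B (426 against 9) and 8.79-fold higher in WM902B (401 against 45.7), and 4.30-fold lower in WM983A. In both states of WM278 it was high, at 2054 and 3023. Fibroblast markers (COL1A1, COL1A2, COL3A1, DCN, LUM and PDGFRA) summed to 21124 normalized counts in resistant WM902B against 642 in the sensitive line, and to 2325 against 1189 in WM983B. COL1A1 made up 18754 and 1366 of the resistant sums. In WM902B PDGFRA (1584 against 32.5), COL3A1 (284 against 0) and DCN (67.9 against 15.2) were higher too. LUM was at 433 against 418 there, and COL1A2 was at or below 3.04. In WM983B PDGFRA (36.6 against 9), COL3A1 (24.1 against 0) and COL1A2 (12.5 against 2) were higher. LUM (884 against 1159) and DCN (1.93 against 13) were lower in that line. Their part in the ITGA11 level was not tested. ITGA2, the α2 subunit, was 2.49-fold higher in WM983B and 2.47-fold higher in WM902B but 4.67-fold lower in WM278. ITGA10, the cartilage α10 subunit, was 5.58-fold lower in WM278 and 2.06-fold higher in WM1617. None of these passed the group test, with an adjusted p between 0.922 and 0.99.

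ITGA4, the α4 subunit that binds VCAM-1 and fibronectin, split the lines. It was 21.5-fold lower in WM983A, 4.76-fold lower in WM983B and 2-fold lower in WM902B, and 3.19-fold higher in WM278 and 2.33-fold higher in WM1617, the pair of lines from 1 patient. For the group it was -0.37 log2 units (SE 0.754, adjusted p = 0.949), and -0.05 without WM983A. Of its exon bases 26.4% are shared with CERKL. ITGA9, the related α9 subunit, was lower in 4 lines by 2.27-fold to 10.8-fold and 2.45-fold higher in WM1617.

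Integrins typical of leukocytes were low in most libraries, and ITGAE and ITGAX were the highest of them. ITGAE, the αE subunit of epithelium-homing T cells, had 144 to 548 normalized counts. ITGAX, the αX subunit of myeloid cells, had 844 and 578 in sensitive and resistant WM1617 and at most 140 elsewhere. Per kilobase ITGAX was not low in WM1617, with 12.1% of the integrin α sum when sensitive and 7.36% when resistant. ITGA3 had 4.96% and 7.52% there. ITGB2, the leukocyte β2 subunit, had 293 normalized counts in resistant WM983A against 11.9 in its sensitive line, and at most 37 in the other libraries. ITGAM, an α partner of β2, had at most 48.3. The 8 leukocyte markers, among them PTPRC, CD3E, CD2, MS4A1, CD14, LYZ and CSF1R, summed to 3.45 to 97.3 normalized counts over the libraries, with the lowest sum in resistant WM983A, and CD3E, CD2 and MS4A1 did not exceed 3 counts in any library.

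Within single lines, without a test, the share of the 35 genes that differed by at least 2-fold can be read against the 19666 genes with at least 20 counts. In WM983A 10 were higher and 14 lower, 28.6% and 40%, where 20.2% and 20.3% of all genes were. In WM983B 12 were higher and 10 lower, against 19.7% and 11.2% of all genes. In WM278 there were 6 and 7, against 14.7% and 7.99%, and in WM902B 10 and 8, against 18.1% and 13.5%. In WM1617 there were 5 and 2, against 3.66% and 6%, and 3 of these 7, ITGA2B and ITGB2 among them, rest on 1 or 2 counts in the sensitive library. The typical size of a difference was larger for these genes than for all genes in every line, with a median absolute log2 ratio of 1.98 against 0.776 in WM983A, 1.36 against 0.619 in WM983B, 0.766 against 0.455 in WM278, 0.59 against 0.26 in WM1617 and 1 against 0.603 in WM902B.

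**Figure D4:**
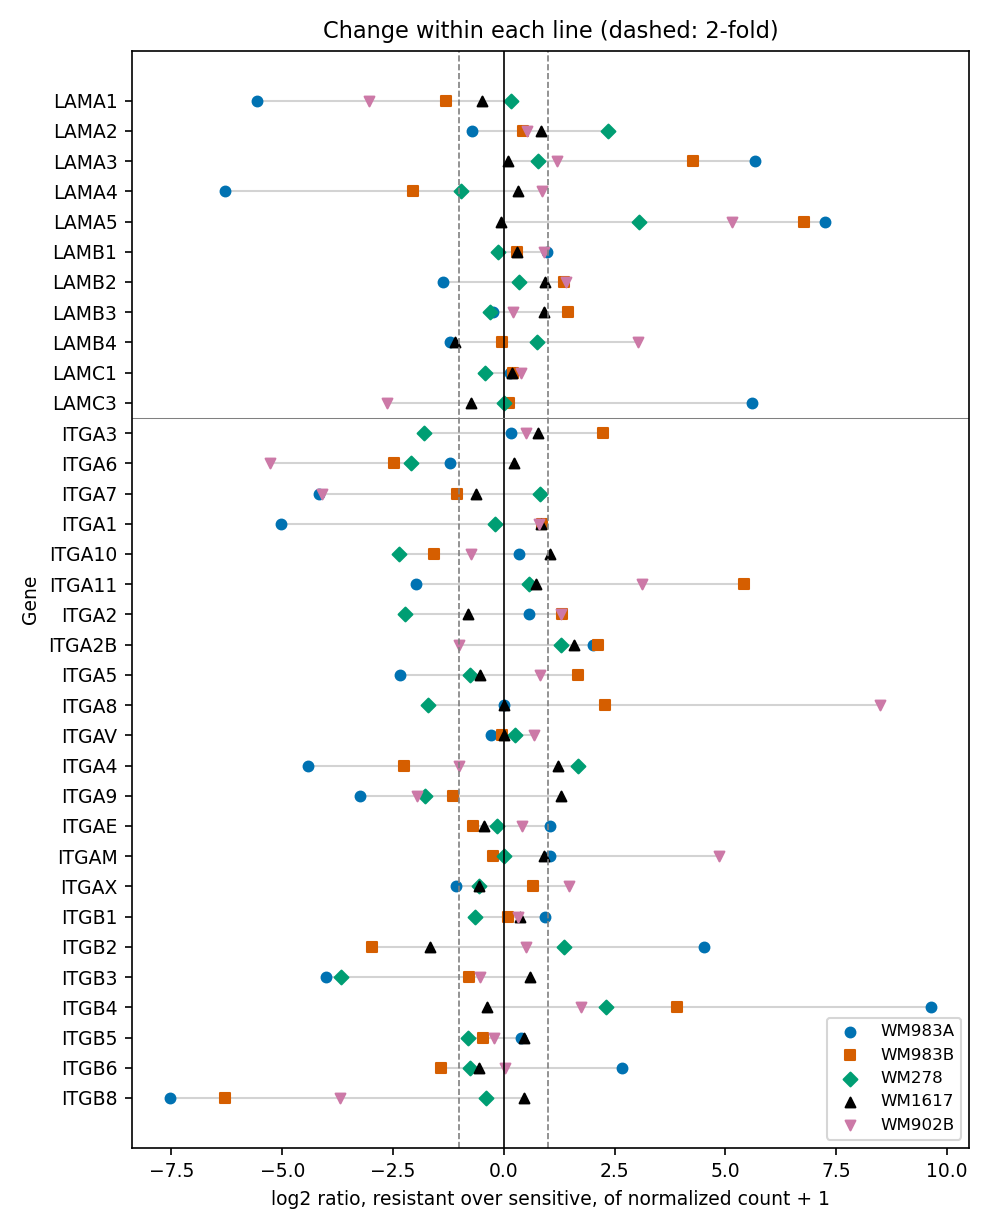
Log2 ratio, resistant over sensitive, of the normalized count + 1 of 34 genes, with 1 symbol per line and dashed lines at a 2-fold change. WM1617 lies near 0 for most genes, with 28 of all 35 described genes changed by less than 2-fold, whereas WM983A reaches from -7.53 (ITGB8) to 9.65 (ITGB4).

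Genes that work with laminins and integrins were called in small numbers, to be read against the 3.53% of all genes called higher and 0.885% called lower, or 3.49% and 2.05% with the cell line block. Of 15 tested basement membrane partners (collagen IV chains, nidogens, perlecan and others) none was called, with a median log2 fold change of -0.182. With the cell line block COL18A1 and NTN4 were higher and FREM1 was lower. COL18A1, which encodes collagen XVIII, was higher in all 5 lines, by 1.24 to 3.26 log2 units. Of 8 other laminin receptors 2 were higher, BCAM and SDC1, with a list median of 0.0139, and with the block or without WM983A BCAM alone was. BCAM, an adhesion molecule that binds the laminin α5 chain, had 264, 176, 526, 139 and 183 normalized counts in the sensitive and 754, 3452, 1326, 190 and 455 in the resistant libraries (log2 fold change 2.25, SE 0.716, adjusted p = 0.63). It was higher in all 5 lines, least in WM1617, at 0.45 log2 units. SDC1, the proteoglycan syndecan-1, was 7.15 log2 units higher in WM983A and 2.65 in WM983B, and within 1 unit in the other lines (log2 fold change 2.53, SE 1.03, adjusted p = 0.685).

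Of 14 tested other integrin ligands TGFB1, EDIL3 and VCAM1 were higher and TNC was lower (list median 0.189). With the block TGFB1 was no longer called, and CCN1 (log2 fold change 2.47) and CCN2 (1.37), matrix proteins that bind integrins, were called higher. Without WM983A EDIL3, POSTN and VCAM1 were called higher and SPP1 was called lower. POSTN was not tested with all lines, and had 19538 normalized counts in resistant WM983B and at most 136 in any other library. SPP1 was higher in resistant WM983A, the line left out (5767 against 311). TNC, the matrix protein tenascin-C, differed by -2.42 log2 units (SE 0.942, adjusted p = 0.669), and was lower in the same 4 lines as ITGA6 and higher in WM1617. TGFB1, the latent form of which αv integrins activate, differed by 1.53 log2 units (SE 0.510, adjusted p = 0.63), and was over 4-fold higher in WM983A, WM983B and WM902B, the lines in which ITGB8 was over 10-fold lower. EDIL3, an αv ligand, was higher in all 5 lines (log2 fold change 3.96, SE 1.06, adjusted p = 0.63). VCAM1, a ligand of α4, was higher in 4 lines and lower in WM983A (log2 fold change 6.49, SE 2.06, adjusted p = 0.63). Of 32 tested focal adhesion genes VCL (vinculin, log2 fold change 1.28, SE 0.396) and LIMS2 (an integrin-linked kinase partner, log2 fold change 2.50, SE 0.829) were higher, with a list median of 0.165. With the block TNS3 (tensin 3, 1.20) was called higher as well. Without WM983A LIMS2 was called higher and FERMT1 was called lower. In WM983A itself FERMT1 was 6.64 log2 units higher. Of 8 tested tetraspanins none was called (median 0.298), and with the block CD37 was called higher. No adjusted p in these lists was below 0.63 without the block.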

How the data were processed

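Poly(A)-selected RNA of 5 lines in 2 states was sequenced as single-end reads of 75 cycles, 1 library each. The authors used HISAT2 for alignment (GRCh38) and StrandNGS for quantification. Tool versions, annotation and strand setting are not given in the sources used here. The authors deposited expected counts, rounded here, and log2 values relative to the sensitive library of each line, which served only to recover 455 raw values of sensitive WM983B that had turned into dates. All 455 fitted the visible digits, and ITGB7 (7.5) was among them.

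R 4.3.3 was used with edgeR 4.0.16 (filterByExpr, TMM, quasi-likelihood test without a block, called at p of at most 0.05 and 2-fold, SE as the absolute log2 fold change over the root of F), limma 3.58.1 and DESeq2 1.42.0. Genes and lists were chosen with earlier results of these data known. Every laminin or integrin gene with at least 20 counts in any library is described. Values in all libraries are given for those called with or without a block, those changed 4-fold in 3 lines in 1 direction, and LAMA5, ITGA3 and ITGB1. Of the lists, called genes are named. Some items that these rules cover are not reported here. Log2 ratios within lines use a pseudocount of 1, and a fold against 3 or fewer counts was set against a floor of 3. Lengths came from GENCODE 44. The fits and the permutation test were tested on simulated data. Same-line samples share a cell line and are pairs by origin, and their deviations from the group means correlated at 0.38 to 0.675 in 4 lines and at -0.0641 in WM983A. The alternatives tried were the block, other tools, size factors, filters, pseudocounts, fold limits, gene lengths and leaving out lines or libraries. The paired sign-flip test and the lists without WM983A were added after the data were seen.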

Additional observations from a re-analysis of the deposited data

Results flagged for a closer look

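In 9 of 70 groups of 5 libraries, 1 library stood apart by Dixon's ratio, the gap to its neighbour over the whole range. The ratio was taken on log2(normalized count + 1), while the levels below are normalized counts. Chance alone gives about 1 in 20 groups. In the sensitive group ITGA1 (ratio 0.786) and LAMB3 (0.869) were low in WM1617, at 62.9 and 33.6 normalized counts. ITGA7 (0.894) and LAMA1 (0.716) were low in sensitive WM278, at 12.3 and 152, and ITGA11 (0.711) and ITGA8 (1) were high there, at 2054 and 15.2. ITGA8 was at 0 in all other sensitive libraries. ITGB3 was low in sensitive WM983B (0.754), at 1214. In the resistant group ITGA8 was high in WM902B (0.73), at 362, and ITGB6 in WM983A (0.848), at 24.2. Among 28 genes compared between the 3 primary and the 2 metastatic lines, 0 moved in opposite directions in every line of the groups, which was not tested further.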

How the results depend on the processing

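LAMA5 was called in every fit tried. The count of laminin and integrin genes called, 5, became 3 with cell line as a replicate block, 3 by limma-voom, 9 by limma-voom with the block, 10 by DESeq2 with the block and 2 with at least 10 counts required in every library, a filter that removes genes near 0 in any library. It ranged from 1 to 7 when lines or libraries were left out, with 2 without WM983A, 3 without WM983B, 3 without the resistant library of either, and, with the block, 1 without WM983B and 3 without WM902B. After adjustment DESeq2 called 2 of them, and 4 with the block, where edgeR called 0. Among all genes, 763 calls became 1493 by DESeq2 with the block and 2258 with no filter, and ranged from 419 (without WM902B) to 1693 (with the block, without WM1617). After adjustment DESeq2 called 106 genes, and 507 with the block. The count of single genes with an unpaired permutation p of at most 0.05 went from 3 to 0 with sign flips within lines in place of it, a replicate block that was added after the data were seen and cannot reach 0.05. Size factors by median of ratios changed no call of a laminin or integrin gene.

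Genes with a small or mixed group change turned direction, and the cause was not tested. With the replicate block the log2 fold changes of ITGA1, ITGA10, ITGA2, ITGA5, ITGA9, ITGAX and LAMC3 became -0.14, -0.66, 0.09, -0.23, -1.43, 0.04 and 0.01, from 0.11, 0.24, -0.69, 0.22, 0.16, -0.33 and -0.34. DESeq2 with the block gave -0.14, -0.67, 0.08, -0.23, -1.46, 0.04 and 0.03 for the same genes. With limma-voom ITGA1, ITGA10, ITGA5, ITGA9, ITGAX and LAMC3 became -0.54, -0.65, -0.24, -1.31, 0.03 and 0.57. With limma-voom and the block ITGA1, ITGA10, ITGA2, ITGA5 and ITGA9 became -0.24, -0.31, 0.02, -0.26 and -0.72.

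When lines or libraries were left out, with or without the block, the log2 fold changes ranged from -0.47 to 0.56 for ITGA1, -1.55 to 0.75 for ITGA10, -1.01 to 4.79 for ITGA11, -1.26 to 1.14 for ITGA2, -0.29 to 0.93 for ITGA3, -1.61 to 0.11 for ITGA4 and -0.70 to 0.60 for ITGA5. They ranged from -2.38 to 0.56 for ITGA9, -0.23 to 0.36 for ITGAE, -0.24 to 0.33 for ITGAV, -1.93 to 2.13 for ITGAX, -0.15 to 0.50 for ITGB1 and -0.49 to 0.04 for ITGB5. For laminins they ranged from -1.88 to 0.28 for LAMA4, -0.08 to 0.67 for LAMB3, -0.10 to 0.31 for LAMC1 and -1.19 to 1.25 for LAMC3. Counts of differing genes within a line became 13 (WM983B), 7 (WM278), 0 (WM1617) and 10 (WM902B) at 4-fold, 22 in WM278 and 18 in WM1617 at 1.5-fold, and 3 in WM1617 with a pseudocount of 5.

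With 1 library per line and state, a difference within a line has no error. Drug exposure continued in the resistant cells, so drug effect and selection cannot be told apart.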
